A study of Mus musculus with 8 samples.

Results

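The choroid plexus epithelial genes were a set of 10 genes, Ttr, Kl, Enpp2, Folr1, Kcne2, Kcnj13, Aqp1, Clic6, Otx2 and Sostdc1, taken by gene symbol from the 25834 genes of the count table. The rule uses no measured value, but the symbols were picked with earlier results of these data known. All 10 passed the filter on low counts, which 16251 genes passed. Hippocampal RNA of male mice was sequenced, 4 control and 4 SAP97-cKO, each mouse giving 1 library. SAP97, encoded by Dlg1, is a scaffold protein of the Dlg-MAGUK family, and in SAP97-cKO mice (Nestin-cre+/-; SAP97fl/fl) its floxed gene was deleted by a Cre driven by the Nestin promoter, which is active in neural progenitors. Control littermates carried the Cre allele alone, the floxed alleles alone or neither, and neither the genotype behind each control library nor the age of the mice used for RNA-seq is stated in the sources used here.

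The choroid plexus is a sheet of epithelial cells over fenestrated capillaries inside the brain ventricles, and it secretes most of the cerebrospinal fluid. Its epithelium moves water and ions, delivers folate and thyroid hormone carriers to the fluid and forms a barrier through tight junctions. The plexus of the lateral ventricle lies against the hippocampus along the fimbria, so a dissected hippocampus can carry some of it. In bulk tissue, fewer cells of a type and less RNA per cell cannot be told apart.

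Each library held 37388177 to 37426572 counts on genes. Dlg1 was 116 ± 9.0 CPM, counts scaled to a common library total, in the controls and 64.0 ± 12.6 CPM in the SAP97-cKO libraries (SD, n = 4 each), and the ranges of 107 to 125 and 53.7 to 82.0 CPM did not overlap. The neuron genes Camk2a and Snap25 stood at 2712 to 4799 CPM in the group means, as in hippocampal tissue. All CPM values, those of Dlg1 and the neuron genes included, are further scaled with TMM, a factor per library that ranged from 0.964 to 1.03. A gene was called at a false discovery rate (FDR) under 0.25, the threshold the study used.

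The promoter sequences of the members are shown because the members followed one another across the libraries. RefSeq windows (GRCm38.p6, 250 bases before to 50 after a transcription start) were at hand for 5 of the 10 members, in 9 windows. Sequence before the start is printed for Kcnj13, Aqp1 and Kcne2, whose levels followed those of Ttr with the steepest slopes. These stretches hold no annotated exon of the 10 members, and exons of other genes were not checked. They are chr1:87394730-87394979 on the minus strand for Kcnj13, chr6:55336049-55336298 on the plus strand for Aqp1 and chr16:92292139-92292388 on the plus strand for Kcne2, each written 5′ to 3′ with capitals for TATAAA, the TATA box letters.
Kcnj13: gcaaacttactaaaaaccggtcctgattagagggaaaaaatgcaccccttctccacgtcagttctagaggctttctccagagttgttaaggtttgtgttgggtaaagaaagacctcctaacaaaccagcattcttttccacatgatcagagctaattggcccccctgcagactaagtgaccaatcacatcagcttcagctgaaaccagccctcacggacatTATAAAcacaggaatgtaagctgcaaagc
Aqp1: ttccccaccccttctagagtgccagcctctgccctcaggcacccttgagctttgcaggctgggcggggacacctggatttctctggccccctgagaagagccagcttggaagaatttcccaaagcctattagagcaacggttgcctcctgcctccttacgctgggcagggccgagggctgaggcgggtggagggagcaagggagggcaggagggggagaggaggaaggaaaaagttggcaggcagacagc
Kcne2: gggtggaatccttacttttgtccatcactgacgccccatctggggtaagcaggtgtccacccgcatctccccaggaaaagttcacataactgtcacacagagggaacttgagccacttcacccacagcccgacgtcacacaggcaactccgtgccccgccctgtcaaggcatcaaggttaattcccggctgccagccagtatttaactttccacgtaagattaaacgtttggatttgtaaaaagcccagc
TATAAA, searched on the gene's strand, lay at position -29 from the start in Kcnj13 and at -192 in 1 Otx2 window. Of all 32851 windows, 8.32% held it. TAATCC, the letters that OTX2 and related homeodomain factors bind, searched on both strands, was in 1 of the 9 member windows, a window of Otx2 itself, and in 7.06% of all windows. GTAAACA, a forkhead factor core searched on both strands, was in none of the 9 member windows and in 3.65% of all windows. No matches overlapped one another, and none is known to be a used site.

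The 10 genes were lower on average in the SAP97-cKO libraries, with group means at 32.9% (Kcne2) to 48.9% (Kl) of the control means, but the mice within each group differed far more than the groups did. No member was called lower or higher, beside 0.283% of all genes tested called lower and 0.0123% called higher. The number of members called was also 0 by limma-voom, beside 0.295% of all genes lower and 0.0123% higher, and by DESeq2, beside 3.62% lower and 2.74% higher. At an unadjusted p under 0.05 the members called numbered 0 by edgeR, beside 7.01% of all genes lower and 4.73% higher, 0 by limma-voom, beside 6.58% and 4.94%, and 0 by DESeq2, beside 6.96% and 5.64%. This count rested on single libraries. By edgeR it was 8 of 10 without control 4, beside 1184 lower and 778 higher of 16434 genes. It was 7 without SAP97-cKO 2, beside 1165 lower and 780 higher of 16412. Without control 1 it was 2, beside 1538 lower and 1196 higher of 16469. All 10 log2 fold changes lay below 0, as did 52.8% of all genes tested, and all 10 lay below -1, as did 1.54%. The median log2 fold change was -1.48 over the members and -0.012 over all genes tested. The groups overlapped for each of the 10, while 3.47% of all genes had groups that did not overlap with the SAP97-cKO lower.

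Ttr, which encodes the thyroid hormone and retinol carrier transthyretin, was the most abundant member. Its level was 1072, 6211, 3462 and 126 CPM in control libraries 1 to 4 and 489, 2131, 1222 and 57.7 CPM in SAP97-cKO libraries 1 to 4. Control 2 and control 3 were above every SAP97-cKO library, SAP97-cKO 4 was below every control, and the other controls lay within the SAP97-cKO range. The highest library was 108 times the lowest. The group means were 2718 ± 2719 CPM in control and 975 ± 908 CPM in SAP97-cKO (SD, n = 4 each), and the log2 fold change was -1.48 (SE 1.07, 95% interval -3.86 to 0.90, edgeR adjusted p = 0.583, exact permutation p = 0.457). Among all genes Ttr ranked 2nd by count in control 2 and 6th in control 3, but 1709th in control 4 and 4088th in SAP97-cKO 4. The 10 members together took 0.994% of all counts in control 2 and 0.0243% in SAP97-cKO 4.

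**Figure D1:**
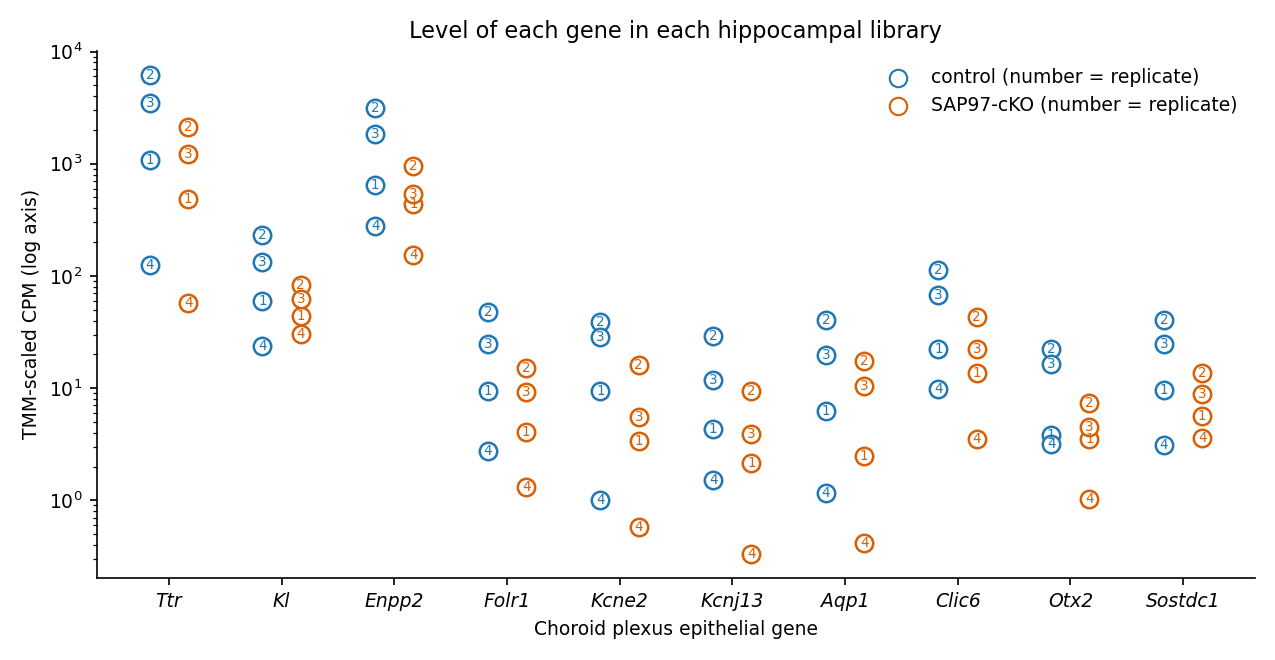
Level of each of the 10 genes in each library, as TMM-scaled CPM on a log axis, with control libraries in blue, SAP97-cKO libraries in orange and the replicate number inside each point. For every gene the libraries ran in the order 2, 3, 1, 4 from high to low in both groups, and controls 2 and 3 stood above all 4 SAP97-cKO libraries while control 4 lay low.

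The spread followed the same libraries in every gene. In all 10 members control 2 was the highest control, followed by control 3, control 1 and control 4, and the SAP97-cKO libraries ran in the same order of numbers. The labels do not say what a replicate number marks. Controls 2 and 3 were above the highest SAP97-cKO library in all 10 members, and SAP97-cKO 4 was below the lowest control in 8, the exceptions being Kl and Sostdc1. The SD of log2 CPM within groups had a median of 1.61 over the members and 0.171 over all genes tested, and it was at least 1 for all 10 members and for 1.04% of all genes. By this SD Ttr ranked 3rd, Aqp1 5th, Kcne2 9th and Kl 131st of the 16251 genes tested.

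Among the secreted products, Enpp2 encodes autotaxin, the enzyme that makes lysophosphatidic acid, and is known from oligodendrocytes as well as from the plexus. Its level was 639.8, 3136, 1826 and 279.6 CPM in controls 1 to 4 and 438, 959.8, 536 and 153 CPM in SAP97-cKO 1 to 4. The log2 fold change was -1.49 (SE 0.70, edgeR adjusted p = 0.432), with a 95% interval of -3.04 to 0.051. Sostdc1, a secreted antagonist of BMP and Wnt signals, stood at 9.52, 40.6, 24.8 and 3.14 CPM in the controls and at 5.69, 13.7, 8.86 and 3.58 CPM in the SAP97-cKO libraries. Its groups overlapped at both ends, since control 4 was the lowest of all 8, and its log2 fold change was -1.29 (SE 0.65, edgeR adjusted p = 0.456). Kl encodes klotho, a co-receptor for FGF23 that is shed into the fluid and is also known from hippocampal neurons. Kl was 59.3, 232, 132 and 23.8 CPM in the controls and 43.8, 82.3, 62.5 and 30.1 CPM in the SAP97-cKO libraries. Control 4 was again the lowest of all 8 libraries, and the log2 fold change of -1.03 (SE 0.57, edgeR adjusted p = 0.485) was the smallest of the 10 in size.

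Aqp1, Kcnj13 and Kcne2, all of ion or water transport, had the widest ranges after Ttr. Aqp1, the water channel of the apical membrane, was 6.26, 40.4, 19.9 and 1.17 CPM in the controls and 2.51, 17.4, 10.5 and 0.42 CPM in the SAP97-cKO libraries, a range of 97.0-fold. Control 4 was lower than 3 of the SAP97-cKO libraries, and the log2 fold change of -1.14 had the widest error relative to its size (SE 1.00, 95% interval -3.36 to 1.09, edgeR adjusted p = 0.647). Kcne2, the beta subunit of potassium channels that include KCNQ1, was 9.44, 38.8, 28.3 and 1.01 CPM in the controls and 3.40, 16.0, 5.53 and 0.58 CPM in the SAP97-cKO libraries. Its log2 fold change, -1.60 (SE 0.96, edgeR adjusted p = 0.516), was the largest in size among the members. Kcnj13, the inward rectifier potassium channel Kir7.1, was 4.31, 29.4, 11.8 and 1.51 CPM in the controls and 2.15, 9.34, 3.87 and 0.33 CPM in the SAP97-cKO libraries. The 12 counts behind the value in SAP97-cKO 4 were the fewest of any member, and the log2 fold change was -1.58 (SE 0.91, edgeR adjusted p = 0.501). Kcnj13 shares 623 of its exonic bases with Gigyf2 on the opposite strand, which held 25418 counts over the 8 libraries, and use of strand in the counting is not stated, so some of its counts may not be its own. Enpp2 and Otx2 share 345 and 154 exonic bases with Gm26684 and Otx2os1, which held 55 and 27 counts.

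Clic6, of the chloride intracellular channel family, was 22.5, 114, 67.8 and 9.89 CPM in the controls and 13.6, 43.3, 22.5 and 3.5 CPM in the SAP97-cKO libraries, with a log2 fold change of -1.37 (SE 0.77, edgeR adjusted p = 0.496). Only SAP97-cKO 4 fell outside the control range. Kcne2 (chr16:92292389-92298129) and Clic6 (chr16:92485736-92541243) lie on the plus strand 188 kb apart, and the other members each lie on a chromosome of their own. Dlg1 is on chromosome 16 as well, 60417 kb from Kcne2. Folr1, the folate receptor that carries folate across the epithelium, was 9.44, 47.4, 24.7 and 2.73 CPM in the controls and 4.03, 15.3, 9.27 and 1.30 CPM in the SAP97-cKO libraries. Its log2 fold change was -1.49 (SE 0.81, edgeR adjusted p = 0.479), with SAP97-cKO 4 alone below the control range.

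Otx2 was the only transcription factor among the members, a homeodomain protein needed to form and keep the choroid plexus. It was 3.85, 22.3, 16.5 and 3.17 CPM in the controls and 3.54, 7.37, 4.47 and 1.03 CPM in the SAP97-cKO libraries. Controls 1 and 4 lay among the SAP97-cKO libraries, and controls 2 and 3 stood well above them. The log2 fold change was -1.48 (SE 0.67, 95% interval -2.97 to 0.014, unadjusted p = 0.0518, edgeR adjusted p = 0.426), the lowest p among the members. Without control 1, Otx2 was called lower at a log2 fold change of -1.77 and an edgeR adjusted p of 0.248, in a fit that called 960.0 of 16469 genes lower and 715 higher. Leaving out any of the other 7 libraries gave 0 called members.

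The size of the difference depended most on control 2 and SAP97-cKO 2. Without control 2 the median log2 fold change of the members was -0.68, and the 10 values ran from -1.01 to -0.24. Without SAP97-cKO 2 the median was -1.99. It was -1.10 without SAP97-cKO 4 and -1.81 without control 4. All 10 values stayed below 0 in each fit that left out 1 library, and also without scaling beyond the library total and with DESeq2 size factors.

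Per kilobase of exon, the order of mean control levels was Ttr at 2291 CPM per kb, Enpp2 at 254, Clic6 at 13.7, Kl at 11.98, Kcne2 and Sostdc1 at 11.0 each, Kcnj13 at 9.27, Folr1 at 9.16, Aqp1 at 6.44 and Otx2 at 2.72 CPM per kb. Ttr was above Enpp2, and Enpp2 above Clic6, in all 8 libraries. Clic6 was above Kl in 3 libraries, Kcne2 above Sostdc1 in 2 and Kcnj13 above Folr1 in 2, so those neighbours were not separated. Kl was above Kcne2 in 6 libraries and Sostdc1 above Kcnj13 in 7. Folr1 was above Aqp1 in all 8 libraries, and Aqp1 above Otx2 in 6.

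The members followed one another closely across the libraries, which share the dissection of the hippocampus as well as the library. Over the 45 pairs of members, Pearson's r of log2 CPM over 8 libraries was 0.912 (Kl with Otx2) to 0.997 (Kcnj13 with Clic6), with a median of 0.970. With the group means removed, r was 0.913 to 0.997 with a median of 0.971, so the pattern was as tight within the genotypes as across them. The slopes were unequal. Per log2 unit of Ttr, Aqp1 changed by 0.96, Kcne2 by 0.93 and Kcnj13 by 0.84, whereas Enpp2 changed by 0.58, Otx2 by 0.56, Sostdc1 by 0.53 and Kl by 0.44.

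**Figure D2:**
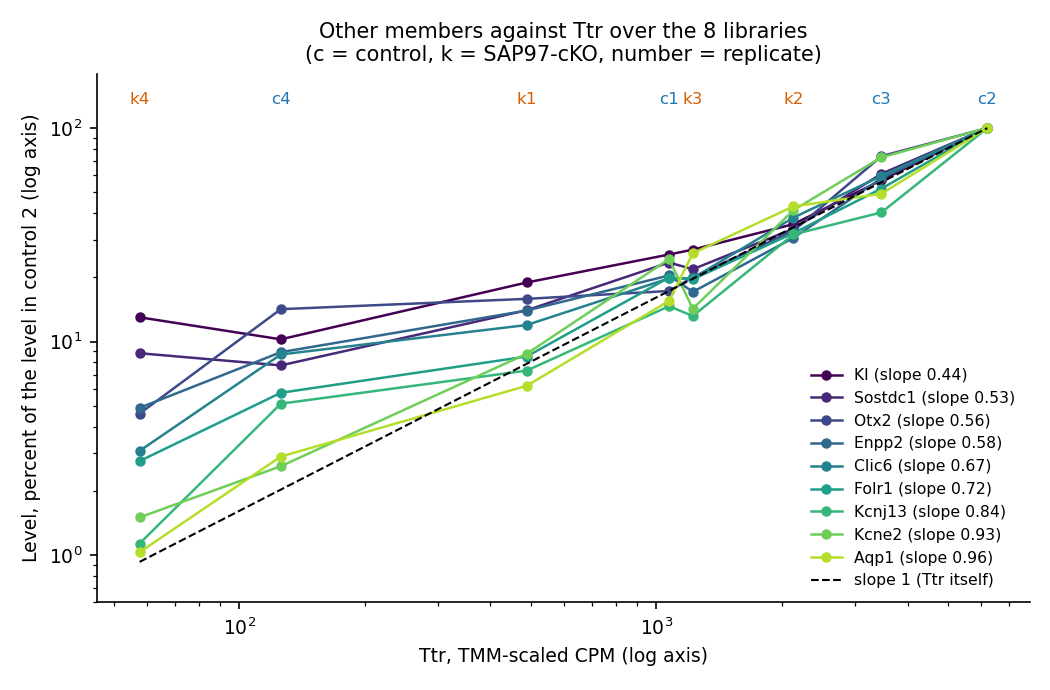
Level of the other 9 members, as a percent of each gene's level in control 2, against the Ttr level in TMM-scaled CPM, both on log axes, with 1 point per library (c, control, k, SAP97-cKO) and the dashed line at a slope of 1. Aqp1 and Kcne2 run close to the dashed line, while Kl, Sostdc1, Otx2 and Enpp2 flatten in the libraries with little Ttr.

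The flattening was seen in the ratio to Ttr. Kl was 37.3 to 89.7 CPM per 1000 CPM of Ttr in 6 of the libraries, 189 in control 4 and 522 in SAP97-cKO 4. Enpp2 was 438 to 897 CPM per 1000 CPM of Ttr in the same 6 libraries, 2222 in control 4 and 2658 in SAP97-cKO 4. For Aqp1 the 6 libraries gave 5.13 to 8.56, control 4 gave 9.28 and SAP97-cKO 4 gave 7.22. Control 4 and SAP97-cKO 4 were both above the other 6 libraries in 7 of the 9 ratios, the exceptions being Kcne2 and Aqp1. Ttr made up 27.8% of the members' counts in control 4 and 22.9% in SAP97-cKO 4, against 48.6% to 64.8% in the other libraries.

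The genes whose pattern was most like the members' mean were Col8a1 (r = 0.998), Trpv4 (0.996), 1500015O10Rik (0.996), F5 (0.995), Abca4 (0.993), Tmem72 (0.992), Slc4a5 (0.990), Cldn2 (0.989), Ace (0.989) and Wdr86 (0.988), with r taken over the 8 libraries among all genes tested. Of these, all but Wdr86 were in the lists of other choroid plexus genes or of its stroma. In control 4 and SAP97-cKO 4, the ratios to Ttr of 7 of the 9 other members lay outside those of the other libraries, so in that respect the members were not alike. Slc4a5, a bicarbonate transporter of the apical membrane, ranged 104-fold and Trpv4, a calcium channel that responds to swelling, 28.9-fold. Among the 100 most similar genes (r of 0.927 or more), 24 came from the 56 other choroid plexus genes tested, 3 from its stroma, 1 from the meningeal list and 1 from the ependymal list. The meningeal gene was Igf2, which is also counted among the 24 other choroid plexus genes. None of the 100 was called.

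The 57 other choroid plexus genes were chosen from general knowledge of the tissue, but with earlier results of these data known. At the median their log2 fold changes were smaller in size than those of the members. Of the 56 tested, 52 had a log2 fold change below 0 and 0 were called by edgeR. An unadjusted edgeR p under 0.05 was found for 15, all lower, beside 7.01% of all genes lower and 4.73% higher. Their median log2 fold change was -0.84, and 24 of them lay below -1. Among the 19 ion and water handling genes, 16 were below 0 with a median of -0.60, and the 3 most abundant were Atp1b1, a sodium pump subunit (0.020), Slc4a10, a bicarbonate transporter (0.040), and Slc12a2, the NKCC1 cotransporter (-0.58, SE 0.24, edgeR adjusted p = 0.401). All 12 secreted and vitamin handling genes were below 0 with a median of -0.96, with Igf2 at -0.78, Igfbp2 at -0.68 and F5, coagulation factor V, at -1.80. All 11 receptor and membrane genes were below 0 with a median of -1.17, with the cation channel gene Trpm3 at -0.46, the serotonin receptor gene Htr2c at -0.35 and Cab39l at -0.57.

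All 8 junction and keratin genes were below 0 as well, with a median of -0.89. The tight junction genes Ocln (-0.28), Cldn2 (-1.26) and Cldn1 (-1.32) were the most abundant of them. Of the 6 transcription factors tested beside Otx2, 5 were below 0 with a median of -0.66, among them Foxj1, the regulator of motile cilia (-0.54), Msx1 (-0.77) and Rfx2 (-0.25). The 6 stromal and capillary genes had a median of -0.95, with Plvap, a marker of fenestrated capillaries, at 0.19 and the collagen genes Col8a2 and Col8a1 at -1.27 and -1.31. No gene of these lists was called by edgeR, and DESeq2 called 8 of the 56 other choroid plexus genes lower, beside 3.62% of all genes.

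The genes that act with the members were split in direction. Of 27 tested, 15 were below 0 and 12 above, with a median log2 fold change of -0.049 and 0 called by edgeR. At an unadjusted edgeR p under 0.05, 4 were lower and 3 higher, beside 7.01% and 4.73% of all genes. Kcnq1, a channel that Kcne2 joins, was at 0.615 ± 0.417 and 0.557 ± 0.0898 CPM in control and SAP97-cKO, with a log2 fold change of -0.14. Lpar1, a receptor for the lipid that Enpp2 makes, had a log2 fold change of -0.63 (SE 0.20, edgeR adjusted p = 0.341), and Aqp4, the water channel of astrocytes, one of 0.43 (SE 0.11, edgeR adjusted p = 0.316). The folate carriers Slc46a1 and Slc19a1 were at -0.049 and -0.18, and the thyroid hormone carrier Slco1c1 at -0.46. Of the receptors that Sostdc1 binds, Lrp6 was at -0.087 and Lrp4 at 0.38, and Fgfr1, which pairs with klotho, was at 0.041.

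Some genes listed for the tissues beside the plexus differed by genotype, and the list means followed the members in part. The 15 ependymal genes had 12 below 0 and 0 called, with a median log2 fold change of -0.46. At an unadjusted edgeR p under 0.05, 7 of them were lower, beside 7.01% of all genes. Pltp was at -0.36, Dnah9 at 0.13 and Dnah5 at 0.24. The 20 meningeal fibroblast genes had 18 below 0 and 7 called lower, beside 0.283% of all genes, with a median of -0.94. Their summed level was 463 to 757 CPM in control and 298 to 440.0 CPM in SAP97-cKO without overlap. The 4 with the smallest p were Ogn (-1.32), Col1a2 (-1.01), Slc22a6 (-1.58) and Mgp (-1.001). The meningeal list was chosen with earlier results of these data known. Every meningeal gene called here is also among the differential genes that the study reported from the same libraries. The share called and the lack of overlap may therefore follow from how the list was picked. Whether meningeal tissue as such differed was not tested. The mean of the meningeal list correlated with that of the members at r = 0.66 over the 8 libraries, and that of the ependymal list at 0.78. No ependymal or meningeal gene was at 0 in any library.

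Oligodendrocyte genes were below 0 in 15 of 15, with 0 called by edgeR and a median of -0.51. At an unadjusted edgeR p under 0.05, 11 of them were lower, beside 7.01% of all genes. Their summed levels were 6179 to 9854 CPM in control and 4768 to 8631 CPM in SAP97-cKO, with Mbp at -0.47 and Mobp at -0.54. The mean of the oligodendrocyte list correlated with that of the members at r = 0.35. Of 12 endothelial genes, 12 were below 0 with 0 called and a median of -0.26 (Slc2a1 -0.32, Flt1 -0.0014, Itm2a -0.38). Of 5 erythroid genes, 5 were below 0 with 0 called and a median of -0.55 (Hbb-bs -0.55, Hba-a1 -0.37, Hbb-bt -0.77). The medians were 0.019 for 12 microglia genes (Csf1r 0.051, Cx3cr1 0.041), 0.035 for 12 astrocyte genes, of which Gjb6 was called lower (-0.53), and 0.072 for 12 neuron genes (Camk2a 0.28, Snap25 -0.030, Syt1 0.19). An unadjusted edgeR p under 0.05 was found for 4 neuron and 2 astrocyte genes that were higher, beside 4.73% of all genes. It was also found for 2 endothelial, 2 erythroid and 1 astrocyte gene that were lower, beside 7.01%, and for 0 microglia genes.

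**Figure D3:**
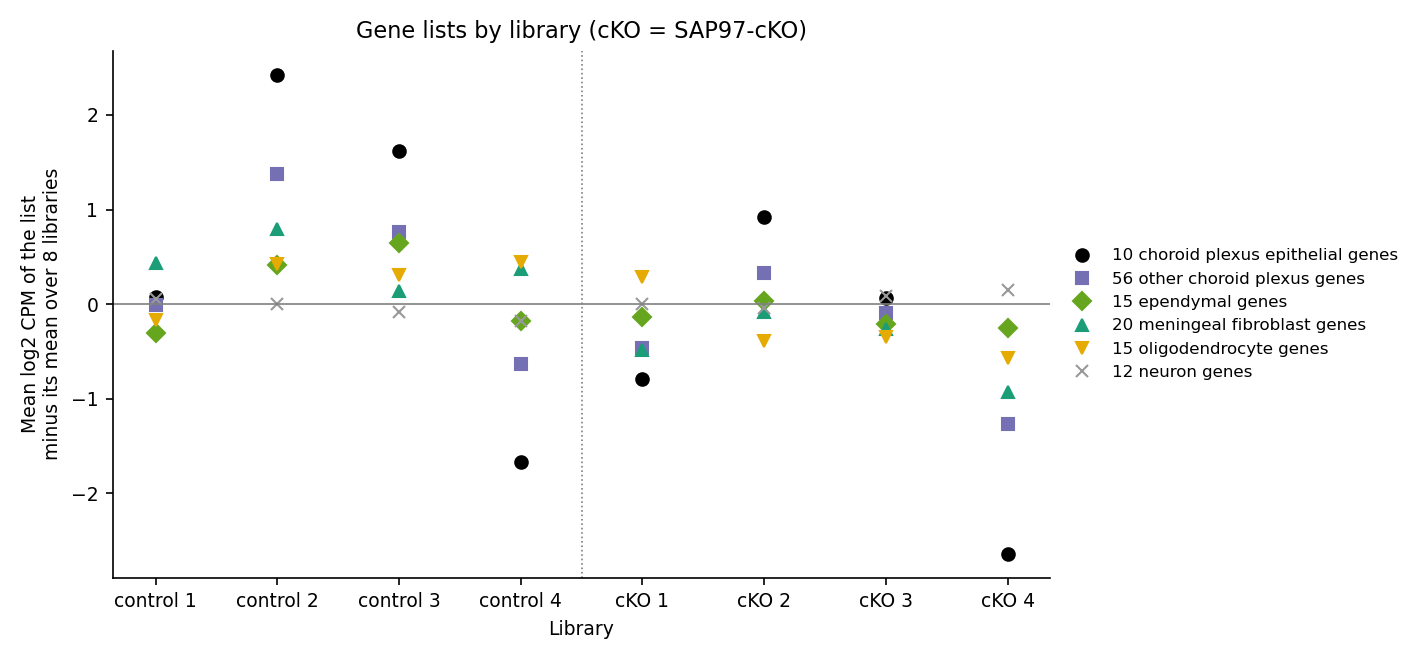
Mean log2 CPM of each gene list in each library, less the mean of that list over the 8 libraries (y axis, log2 units), with controls left and SAP97-cKO right of the dotted line. The 10 members span the widest range and the 56 other choroid plexus genes follow them, the meningeal genes are higher in every control than in any SAP97-cKO library, and the neuron genes stay near 0.

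With the level of meningeal or oligodendrocyte genes in the fit, the members' differences from 0 were mostly within their standard errors. With the other choroid plexus genes most of them exceeded their standard errors. With the mean of the other choroid plexus genes as a covariate, the log2 fold changes ran from -0.10 (Otx2) to 0.97 (Aqp1) with a median of 0.27, and edgeR adjusted p was 0.477 to 0.871. The standard error went from 0.70 to 0.12 for Enpp2 and from 0.77 to 0.14 for Clic6. Aqp1 (0.97, SE 0.33) had an unadjusted p of 0.0136 and Ttr was at 0.79 (SE 0.36). With the meningeal genes as the covariate, all 10 values lay above 0, from 0.077 (Otx2) to 1.54 (Aqp1), with edgeR adjusted p of 1.00 each, but the standard errors were larger than without it (0.92 for Enpp2, 0.98 for Clic6, 1.38 for Ttr, 0.95 for Otx2). The meningeal list means did not overlap between the genotypes, so this covariate and the genotype can hardly be told apart. With the oligodendrocyte genes, all 10 lay below 0, from -1.42 to -0.69, with a standard error of 2.17 for Ttr. The mean of the other choroid plexus genes correlated with that of the members at r = 0.991 over the 8 libraries, so that fit holds nearly the same quantity on both sides. The values above 0 in that fit and in the meningeal fit therefore cannot be read as a reversed genotype difference. No member was called in these 3 fits, and of all genes tested 0% were called lower and 0% higher in each.

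**Figure D4:**
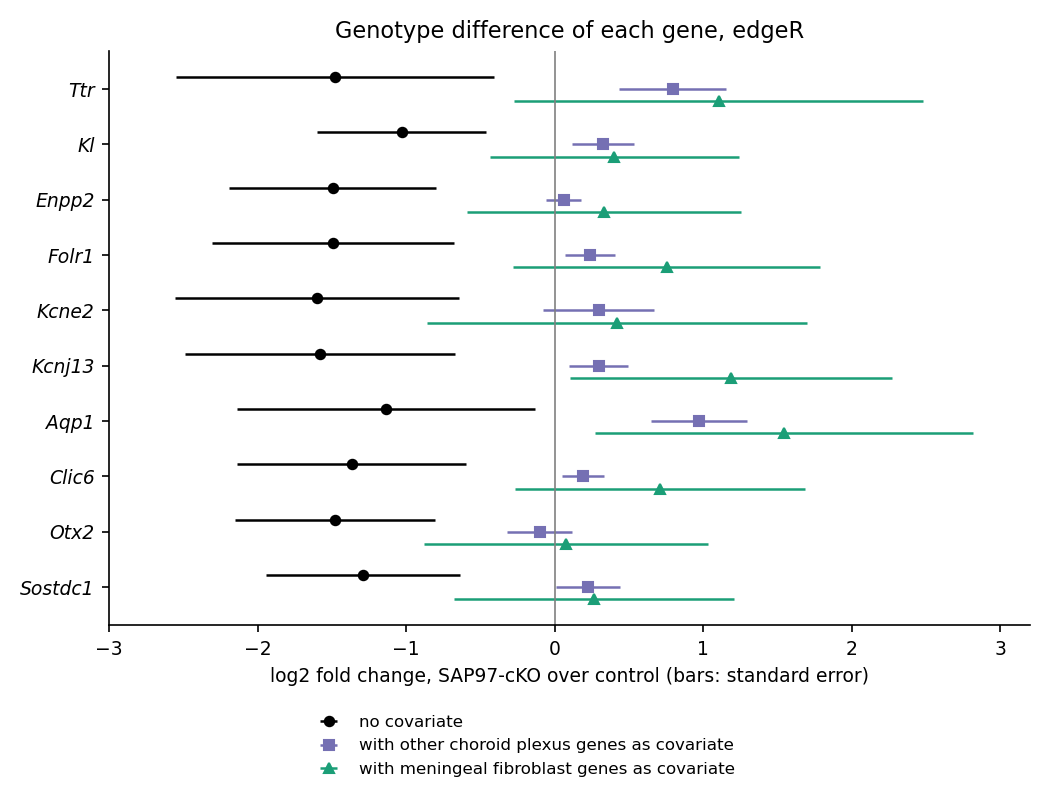
Log2 fold change (SAP97-cKO over control) of each of the 10 genes by edgeR, with bars for the standard error, without a covariate (black), with the other choroid plexus genes (purple) and with the meningeal fibroblast genes (green) as a covariate. The black points lie between -1.60 and -1.03, and the covariate points lie above 0 except that of Otx2 with the other choroid plexus genes.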

How the data were processed

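RNA was sequenced from hippocampi of 4 control and 4 SAP97-cKO mice. The authors aligned reads to mm10 with STAR 2.5.3a, removed ribosomal and mitochondrial reads, resampled libraries to a common depth and deposited whole-number counts per Ensembl gene, 37388177 to 37426572 counts per library. The deposited table also holds the authors' own comparison, as a log2 fold change, a p-value and a q-value per gene, and these columns were not used.

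Counts were tested with edgeR 4.0.16 in R 4.3.3 (filterByExpr with a minimum count of 10 and a total of 15, TMM, quasi-likelihood test, Benjamini-Hochberg over 16251 genes, FDR under 0.25). The alternatives were limma 3.58.1 (voom), DESeq2 1.42.0, other scalings and filters, 3 covariates, a replicate block and leaving out each library. The single-gene permutation test was two-sided and exact over 70 assignments of the libraries, with a smallest possible p of 0.0286. Log2 CPM used a prior count of 2. The scripts were tested on simulated data.

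The members and gene lists were chosen with earlier results of these data known, and TATAAA was added as a motif after the values were seen. All 10 members were named, and of each other list the called genes (at most 4) or else the 3 most abundant, except for a few genes that are not reported here. Exon lengths and positions came from GENCODE M21 (GRCm38).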

Additional observations from a re-analysis of the deposited data

How the results depend on the processing

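The members called lower numbered 0 in edgeR without a covariate, by limma-voom and by DESeq2, and 0 to 1 when each library was left out in turn. The labels do not say what a replicate number marks. Deviations from the group means correlated at -0.062, 0.20, 0.090 and 0.26 between libraries numbered 1 to 4, so not every pair was above 0.1. Controls 2, 3 and 4 correlated best with the SAP97-cKO library of their own number, and control 1 with SAP97-cKO 4. Seen from the other group, SAP97-cKO 2 and 3 correlated best with the control of their own number. SAP97-cKO 4 correlated best with control 1 (0.2594, against 0.2592 with control 4), and SAP97-cKO 1 with control 2 (0.103). Pairing by number is not given by the design and was not tested. With the replicate number as a block, 8 members were called lower, namely all but Kl and Sostdc1, with 31 other choroid plexus genes. Over all genes this fit called 234 (1.44%) lower and 22 (0.135%) higher. All 10 members had an unadjusted edgeR p under 0.05 with the block, beside 7.03% of all genes lower and 3.81% higher. With the same filter and no block, 0 members had such a p. With no block and no filter on low counts 5 did, beside 1375 lower and 1076 higher of 25834 genes.

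The other choroid plexus genes called lower numbered 0, 8 by DESeq2, 1 without a filter on low counts, and 0 to 14 when each library was left out, the 14 without control 1, 3 without SAP97-cKO 1 and 1 without control 3. Over all genes, 46 were called lower and 2 higher, against 0 and 0 at an FDR under 0.05 and with each of the 3 covariates, 588 and 445 by DESeq2, 89 and 15 without a filter, 94 and 1 without scaling, and 0 to 960.0 lower and 0 to 715 higher when each library was left out. The cause of these changes was not tested.

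The fitted values changed sign only with a covariate. With the other choroid plexus genes most of them exceeded their standard errors, though only Aqp1 had an unadjusted edgeR p under 0.05. With the meningeal genes most lay within their standard errors. With the other choroid plexus genes the log2 fold changes were 0.79 for Ttr, 0.33 for Kl, 0.061 for Enpp2, 0.24 for Folr1, 0.30 for Kcne2, 0.30 for Kcnj13, 0.97 for Aqp1, 0.19 for Clic6 and 0.22 for Sostdc1. With the meningeal genes they were 1.10 for Ttr, 0.40 for Kl, 0.33 for Enpp2, 0.76 for Folr1, 0.42 for Kcne2, 1.19 for Kcnj13, 1.54 for Aqp1, 0.71 for Clic6, 0.077 for Otx2 and 0.27 for Sostdc1. The covariate of other choroid plexus genes shares Igf2 and Slc13a4 with the meningeal list. Depth limited the members most in SAP97-cKO 4, where Kcnj13 had 12 counts, Aqp1 15 and Kcne2 21.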
